A study of Mus musculus with 13 samples.

Results

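The subject is a small group of mouse tandem repeats outside the centromeric pair of major and minor satellite: the entries whose names begin with MMSAT4, IMPB_01, ZP3AR or SQR1_MM. They were taken by name from 2 tables of read coverage over transposon, satellite and piRNA locus sequences. The names gave 5 entries, of 889 with signal: MMSAT4, IMPB_01, SQR1_MM and 2 entries of ZP3AR. Of the ZP3AR entries, 1 is named for Muridae and is called ZP3AR here, and 1 is named for Mus and is called ZP3AR_MM. Each entry name carries the class satellite. The names do not give a genomic position, so that the entries lie outside centromeres was not checked.

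RNA was sequenced strand by strand, after removal of ribosomal RNA, from 2 mouse tumor lines. In B16 melanoma cells the groups were a double knockout of Tdg and Trp53 (DKO), a Tdg knockout, a Trp53 knockout and wild type (WT), with 2 libraries each. In KP lung adenocarcinoma cells (LUAD in the labels) they were a Tdg knockout with 3 libraries and WT with 2. The labels give no allele beyond these genotypes, and "WT" in KP is the group set against the Tdg knockout. They do not say whether a knockout is 1 clone, or whether libraries came from separate cultures, so p-values measure only the spread between these libraries. The tables hold no mRNA, so neither the loss of Tdg and Trp53 nor the melanoma and lung identities could be checked in them.

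Satellites are sequences repeated head to tail in long arrays. They are mostly packed in silent chromatin, yet they can be transcribed, often from both strands, and their RNA is used as a readout of that silencing. Tdg encodes thymine DNA glycosylase, which removes thymine from G:T mismatches and the oxidized cytosines made during active DNA demethylation. Trp53 encodes p53, the transcription factor that halts growth or kills cells after DNA damage and is also known to restrain repeat transcription. Functions of these 5 repeats are not stated, since none was known with certainty.

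Values are mean coverage per base of an entry, so they are already per length. The values of each entry were whole multiples of 1 step, which is 1/168 for MMSAT4, 1/212 for ZP3AR, 1/320 for ZP3AR_MM, 1/687 for SQR1_MM and 1/2548 for IMPB_01. Across all elements the lowest value corresponded most often to 298 covered bases, taken as 1 fragment. By that measure these repeats were thinly covered. MMSAT4 had 0.93 to 15.3 fragments per library, and ZP3AR antisense had 8.01 to 50.1. Coverage summed over all repeats other than 7SL was 18137 to 46967 in B16, highest in DKO library 1, and 5242 to 15375 in KP. Depth per library is not given in the sources used here, and fewer transcribing cells cannot be told apart from less RNA per cell.

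**Figure D1:**
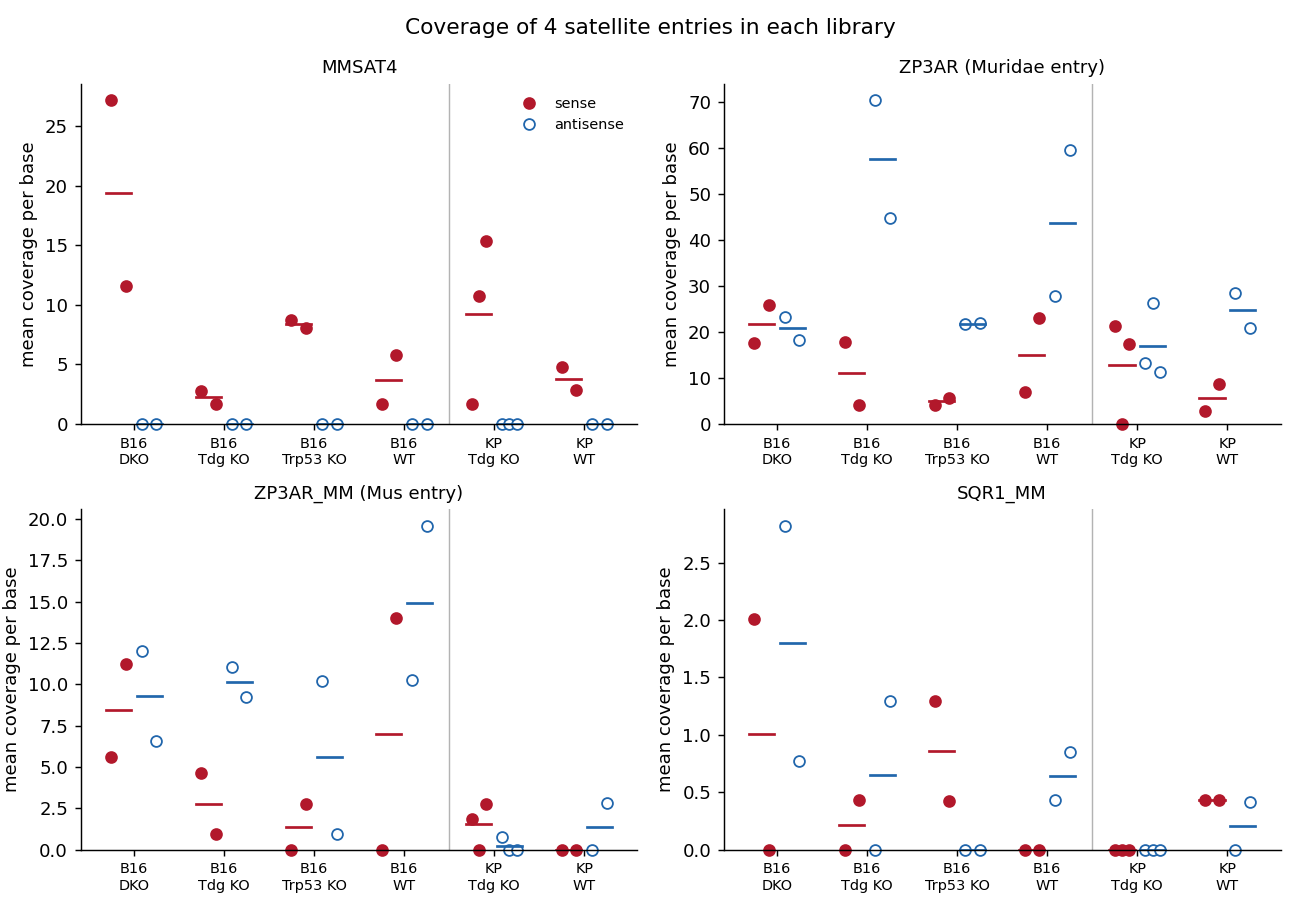
Mean coverage per base of MMSAT4, ZP3AR, ZP3AR_MM and SQR1_MM in each of 13 libraries; filled red points are sense, open blue points antisense, and bars are group means. Among B16 libraries MMSAT4 is highest in the 2 DKO libraries, and it has no antisense coverage, while ZP3AR antisense lies above its sense coverage in every B16 library except DKO library 2.

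Of the 10 strands of the 5 entries, 9 had signal in B16 and all 9 passed the filter of a mean coverage of at least 0.1. In KP, 8 had signal and 7 passed. With coverage as deposited, 0 of the 9 passed in any B16 comparison and 0 of the 7 passed in KP (limma, adjusted over all features of a table). In DKO against Trp53 KO, 29.5% of the 1246 features rose and 1.52% fell. In DKO against Tdg KO these shares were 3.05% and 0.0803%, and in DKO against WT they were 4.09% and 0.0803%. In Tdg KO against WT, in Trp53 KO against WT, in the interaction of both losses and in KP they were 0%. Before adjustment, 2 of the 9 rose in DKO against Trp53 KO, ZP3AR sense and SQR1_MM antisense, beside 605 rises and 32 falls among all features. Unadjusted calls elsewhere were 1 rise and 1 fall in DKO against Tdg KO, MMSAT4 and ZP3AR antisense (411 and 6 of all features), 1 rise in DKO against WT, MMSAT4 (355 and 16), 1 rise in the interaction, SQR1_MM antisense (427 and 10), and 1 fall in KP, SQR1_MM sense (44 and 4). There were none in Tdg KO against WT (15 and 27) or Trp53 KO against WT (16 and 65).

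Coverage as deposited was broadly higher in DKO, which matters for reading these counts. It was not scaled to library size and depth is not known, so more repeat RNA in DKO cannot be told apart from deeper libraries. The median log2 change of all features in DKO against Trp53 KO was 1.67 as deposited, 0.60 after median-ratio scaling, -0.10 after quantile normalization and -0.38 after centring each library on its median. Over the 7 strands with signal in both groups, the median was 1.46 as deposited and 5 were higher, beside a median of 1.43 over the 1005 features with signal in both groups. After median-ratio scaling the medians were 0.04 and 0.10. In Trp53 KO against WT, 6 strands had a median of -1.02 as deposited, beside -0.44 over 986 features, and in KP 4 strands had -0.60, beside 0.63 over 813 features. After median-ratio scaling these were -0.57 beside 0.00 in Trp53 KO against WT, and -1.28 beside 0.03 in KP. The members' medians were thus close to those of all features in DKO against Trp53 KO and below them in Trp53 KO against WT and in KP. As deposited they were above in DKO against Tdg KO (1.28 beside 1.0) and in DKO against WT (1.17 beside 0.88). In Tdg KO against WT they were below (-0.48 beside -0.14). These strands include both ZP3AR entries, which may share reads, so the medians do not stand for separate repeats. In Trp53 KO against WT, 2 of the 6 were higher as deposited, MMSAT4 and IMPB_01 sense, and the rest were of ZP3AR and ZP3AR_MM. In KP, 1 of the 4 was higher, MMSAT4, and the rest were again of ZP3AR and ZP3AR_MM. Some strands had both group means under the coverage of 3 fragments, such as ZP3AR_MM antisense in KP and SQR1_MM antisense in Tdg KO against WT. The KP median lies between ZP3AR antisense (-0.62) and sense (-0.58). That sense change took its sign from Tdg KO library 2, at 0.

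ZP3AR was the best covered of the 5 entries outside 2 libraries with very high IMPB_01, and its antisense coverage exceeded its sense coverage in 10 of 13 libraries. Its antisense coverage was 23.3 and 18.2 in DKO libraries 1 and 2, 70.4 and 44.8 in Tdg KO, 21.7 and 21.8 in Trp53 KO, and 27.9 and 59.4 in WT. By group means, Tdg KO (57.6 ± 18.1) was followed by WT (43.7 ± 22.3), Trp53 KO (21.8 ± 0.0767) and DKO (20.7 ± 3.63; SD, n = 2 each). As deposited, Tdg KO and WT overlapped, as did Trp53 KO and DKO, while both groups without Trp53 lay below both groups with it. Of all features, 3.13% were lower in DKO than in Tdg KO without overlap, and 5.94% lower in DKO than in WT. In Trp53 KO, 35.2% were lower than in WT without overlap, so that part of the pattern was common. For Trp53 KO against Tdg KO no share was counted. As deposited, the log2 change in DKO was -0.08 against Trp53 KO (95% interval -1.12 to 0.95, adjusted p = 0.877 by limma). It was -1.44 against Tdg KO (adjusted p = 0.0699) and -0.98 against WT (adjusted p = 0.185), neither of which passed. These 3 comparisons share the DKO libraries.

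Relative to the other features, ZP3AR antisense fell in DKO under each of 3 scalings, though not as deposited. After median-ratio scaling its coverage was 13.2 and 13.2 in the DKO libraries, against 35.4 and 41.8 in Trp53 KO, 81.6 and 69.4 in Tdg KO, and 40.6 and 63.6 in WT. The DKO libraries were thus well below all 6 others on this scale. Trp53 KO overlapped WT on it, so the split by Trp53 seen as deposited was not kept. Of all features, 24.3%, 25.0% and 22.2% were lower on it without overlap in DKO than in Trp53 KO, Tdg KO and WT, in that order. The log2 change was -1.53 against Trp53 KO (SE 0.29, adjusted p = 0.0304 by limma), where 3.93% of all features fell and 6.18% rose. Against Tdg KO it was -2.50 (SE 0.29, adjusted p = 0.0224, 0.161% of features fell and 0.722% rose), and against WT -1.93 (SE 0.29, adjusted p = 0.0378, 0.241% fell and 0.883% rose). The falls against Tdg KO and WT were outside the naming rule, and they are given because of their values. The change also passed with quantile normalization (-1.43, -2.37 and -1.82, adjusted p = 0.0307, 0.0236 and 0.0320, against Trp53 KO, Tdg KO and WT in that order), where 4.17%, 0.642% and 1.12% of features fell and 3.05%, 1.04% and 1.04% rose. With median centring it was -2.13, -2.94 and -2.35 (adjusted p = 0.0103, 0.0213 and 0.0388), where 8.83%, 0.161% and 0.321% fell and 2.09%, 0.161% and 0.241% rose. Of 9 strands, ZP3AR antisense was the 1 called under these scalings, in each of the 3 comparisons. Whether the difference between groups without and with Tdg changed with the Trp53 genotype was tested as an interaction. It was -2.10 after median-ratio scaling (SE 0.41) and did not pass (adjusted p = 0.126).

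With median-ratio scaling and 1 of the 8 B16 libraries left out, the change in DKO against Trp53 KO ranged from -1.65 to -1.41 and passed in 2 of 8 cases, without WT library 1 or 2 (adjusted p = 0.0217 to 0.118). Against Tdg KO it ranged from -2.61 to -2.38 and passed in 4 of 8 (adjusted p = 0.0229 to 0.166), and against WT from -2.26 to -1.61 and passed in 1 of 8 (adjusted p = 0.0391 to 0.102). Leaving out DKO library 1, with its high total coverage, gave -1.53 against Trp53 KO (adjusted p = 0.118).

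**Figure D2:**
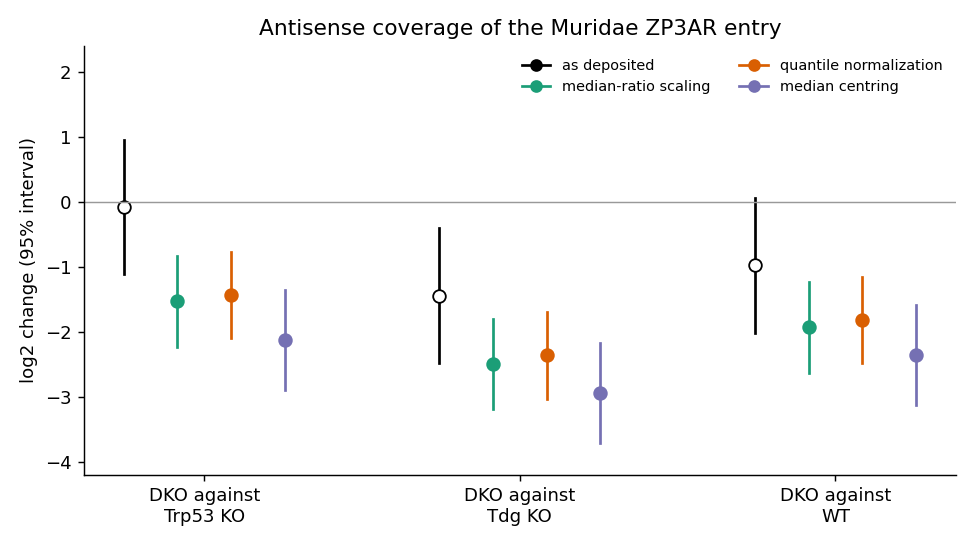
Log2 change of ZP3AR antisense coverage in B16 DKO against each other group, with 95% intervals, for values as deposited and after 3 scalings; filled points passed at an adjusted p under 0.05 and open points did not. The changes as deposited are -0.08, -1.44 and -0.98, and those after scaling lie between -2.94 and -1.43.

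ZP3AR sense coverage as deposited was 17.5 and 25.8 in DKO, against 4.22 and 5.57 in Trp53 KO, without overlap. That log2 change of 2.11 (SE 0.81, 95% interval 0.15 to 4.07) did not pass after adjustment (adjusted p = 0.0825 by limma). In Tdg KO the values were 17.7 and 4.21 and in WT 7.06 and 23.0, so DKO overlapped Tdg KO and WT. Among all features, 68.9% were higher in DKO than in Trp53 KO without overlap, so this separation does not set ZP3AR apart. After median-ratio scaling the groups overlapped, with 9.94 and 18.8 in DKO and 6.88 and 10.7 in Trp53 KO.

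The strand share of an entry is not changed by dividing a library by a scaling factor. Antisense made up 57.1% and 41.4% of ZP3AR coverage in the DKO libraries, 79.9% and 91.4% in Tdg KO, 83.7% and 79.7% in Trp53 KO, and 79.8% and 72.1% in WT. The DKO libraries were the lowest 2 of 8 and did not overlap another group. Of 676 elements, 24.3% had a higher ratio of sense to antisense without overlap in DKO than in Trp53 KO, 19.8% than in Tdg KO and 18.0% than in WT. Fitted as log2 of sense over antisense, the shift in DKO was 2.19 against Trp53 KO (SE 0.72, adjusted p = 0.218 by limma), 2.73 against Tdg KO (SE 0.72, adjusted p = 0.251) and 1.71 against WT (SE 0.72, adjusted p = 0.42). None passed. Of 676 elements, 0 passed in the strand ratio in DKO against Trp53 KO (0%), with 39 rises and 59 falls before adjustment.

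In KP the ZP3AR strand share split the Tdg KO group. Antisense made up 38.4%, 100% and 39.3% in Tdg KO libraries 1, 2 and 3, and 91.1% and 70.8% in WT. Antisense coverage was 13.3, 26.3 and 11.3 in Tdg KO and 28.5 and 20.9 in WT (log2 change -0.62, 95% interval -2.14 to 0.89, adjusted p = 0.778 by limma). Sense coverage was 21.3, 0 and 17.4 in Tdg KO and 2.79 and 8.60 in WT. The sense log2 change of -0.58 (adjusted p = 0.923) had the sign of the library at 0, and it was 1.95 without that library and 0.21 without WT library 2. Tdg KO libraries 1 and 3 thus had more sense and less antisense coverage than both WT libraries, and library 2 had sense below WT and antisense between the WT values.

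**Figure D3:**
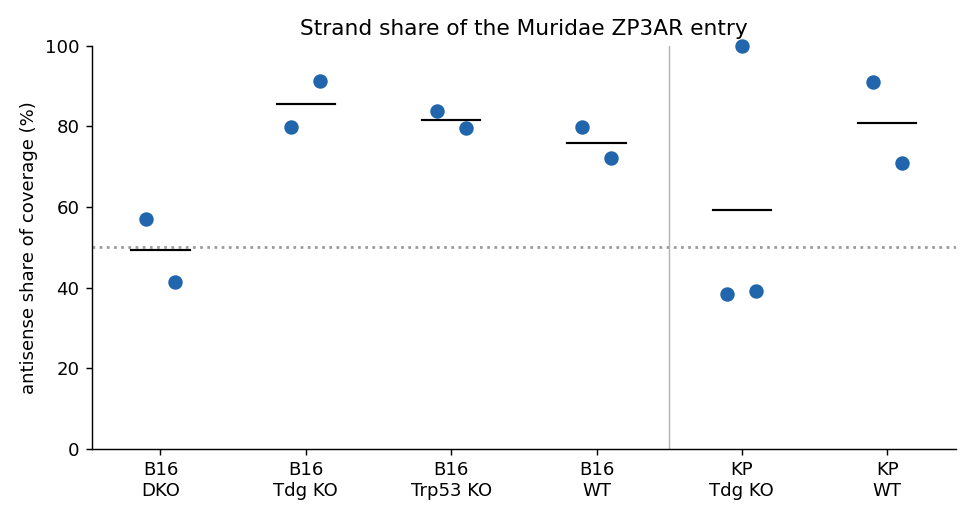
Antisense share of ZP3AR coverage, in percent, in each library, with bars at group means and a dotted line at 50%. The B16 DKO libraries are at 57.1% and 41.4%, below the other 6 B16 libraries at 72.1% to 91.4%. KP Tdg KO libraries 1, 2 and 3 are at 38.4%, 100% and 39.3%, and the KP WT libraries at 91.1% and 70.8%.

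Loss of Tdg alone in B16 did not move ZP3AR past the threshold on either strand. The log2 change in Tdg KO against WT was 0.46 in antisense (95% interval -0.57 to 1.5) and -0.55 in sense (-2.51 to 1.41), each with an adjusted p of 1.00 by limma. In Trp53 KO against WT, both strands of ZP3AR were lower without overlap as deposited, where 35.2% of all features were lower without overlap. After median-ratio scaling both strands overlapped. Sense was then at 6.88 and 10.7 in Trp53 KO and 10.3 and 24.6 in WT, and antisense at 35.4 and 41.8 against 40.6 and 63.6.

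ZP3AR_MM, the Mus entry, resembles ZP3AR in name and may hold some of the same reads, so it is not a separate measurement. Its antisense coverage was 12.0 and 6.55 in DKO, 11.1 and 9.27 in Tdg KO, 10.2 and 0.938 in Trp53 KO, and 10.3 and 19.6 in WT. Its sense coverage was 5.63 and 11.2 in DKO, 4.66 and 0.938 in Tdg KO, 0 and 2.79 in Trp53 KO, and 0 and 14.04 in WT. Trp53 KO library 2 was lowest in antisense, and WT library 2 highest on both strands. The log2 change in DKO against Trp53 KO was 3.91 in sense (SE 2.55, adjusted p = 0.236 by limma) and 1.46 in antisense (SE 1.04, adjusted p = 0.270). The sense value leans on a Trp53 KO library at 0, with a Trp53 KO mean of 1.40, under the coverage of 3 fragments (2.79). It was 1.86 after median centring and 2.82 after median-ratio scaling. In Tdg KO against WT the log2 change was 0.90 in sense and -0.48 in antisense (SE 2.55 and 1.04, each adjusted p = 1.00). The sense means ran the other way, 2.80 in Tdg KO and 7.02 in WT, and with a pseudocount of 1 in place of 0.1 the change was -0.23. In KP, ZP3AR_MM was nearly absent: sense coverage was 1.86, 0 and 2.78 in Tdg KO and 0 in both WT libraries, and antisense was 0.75, 0 and 0 in Tdg KO and 0 and 2.81 in WT. None of these values exceeded 3.02 fragments, and the group means were under the floor of 3 fragments (2.79 in coverage), so no fold is given. Neither strand passed (adjusted p = 0.778 in antisense and 0.777 in sense by limma).

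MMSAT4 was read in sense in all 13 libraries and at 0 in antisense in all 13. A count of 0 allows antisense coverage of up to 5.32 per library, the coverage of 3 fragments on this short entry. Its sense coverage was 27.2 and 11.6 in DKO, 2.79 and 1.71 in Tdg KO, 8.74 and 8.03 in Trp53 KO, and 1.64 and 5.81 in WT. Group means were 19.4 ± 11.04 in DKO, 8.39 ± 0.505 in Trp53 KO, 3.73 ± 2.95 in WT and 2.25 ± 0.762 in Tdg KO (SD, n = 2 each). DKO and Trp53 KO, the groups without Trp53, did not overlap the groups with it, and Tdg KO lay within the WT values. In fragments, Trp53 KO held 4.93 and 4.53, WT 0.93 and 3.28, and Tdg KO 1.57 and 0.96. The WT and Tdg KO means were under the coverage of 3 fragments (5.32), so changes against them rest on few fragments. No share of all features was counted for Trp53 KO against Tdg KO. Of all features, 62.1% were higher in DKO than in Tdg KO without overlap, and 54.7% higher in DKO than in WT.

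None of these MMSAT4 differences passed. In DKO against Tdg KO the log2 change was 2.97 (SE 0.70, 95% interval 1.28 to 4.66, adjusted p = 0.0521 by limma), and with a pseudocount of 1 it was 2.56 and passed (adjusted p = 0.0464). In DKO against WT it was 2.48 (SE 0.70, adjusted p = 0.0717). In Trp53 KO against WT, where 3.61% of all features were higher without overlap, MMSAT4 was 1 of 2 member strands that were. Its log2 change there was 1.40 (adjusted p = 0.704). In DKO against Trp53 KO the change was 1.08 (95% interval -0.61 to 2.77, adjusted p = 0.235). That change is below 0 after each scaling (-0.37, -0.18 and -0.97 after median-ratio, quantile and median centring). In Tdg KO against WT both group means were under the floor of 5.32, so no change is given (adjusted p = 1.00). After median-ratio scaling, MMSAT4 was at 15.4 and 8.45 in DKO, 3.23 and 2.65 in Tdg KO, 14.3 and 15.4 in Trp53 KO and 2.39 and 6.22 in WT, so the groups without Trp53 still lay above the others. On this scale 30.7% of all features were higher without overlap in DKO than in Tdg KO, 29.8% in DKO than in WT, and 10.8% in Trp53 KO than in WT.

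In KP, MMSAT4 sense coverage was 1.65, 10.8 and 15.4 in Tdg KO libraries 1, 2 and 3 and 4.75 and 2.83 in WT. The groups overlapped, since Tdg KO library 1 was below both WT libraries. The log2 change of 0.82 (95% interval -1.65 to 3.29) did not pass (adjusted p = 0.778 by limma). These values are 0.93, 6.07 and 8.68 fragments in Tdg KO and 2.68 and 1.60 in WT.

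IMPB_01 was the entry with the widest range, and the range lay between libraries of the same group. Sense coverage was 832 and 1.31 in DKO libraries 1 and 2, 222 and 0.468 in Tdg KO, 2.70 and 0.117 in Trp53 KO, and 0.470 and 0.352 in WT. DKO library 1 was 633.2 times DKO library 2, and Tdg KO library 1 was 473.1 times Tdg KO library 2. In fragments, these 2 high libraries held 7112 and 1894, and the other 6 B16 libraries held 1.00 to 23.1. IMPB_01 sense ranked 12 of 1374 features with signal in DKO library 1 and 17 of 1123 in Tdg KO library 1, and no higher than 463 in another B16 library.

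Antisense coverage of IMPB_01 was found in the same 2 libraries and in no other. It was 1.77 in DKO library 1 and 2.29 in Tdg KO library 1, so sense exceeded antisense 469.2 times and 96.9 times. Both libraries come from cells without Tdg, and in each case the other library of the genotype did not share the signal. The log2 change of 5.46 in DKO against Trp53 KO did not pass for sense (SE 3.70, 95% interval -3.48 to 14.40, adjusted p = 0.250 by limma). In Tdg KO against WT it was 4.47 (SE 3.70, 95% interval -4.47 to 13.40, adjusted p = 1.00). With both high libraries left out, the sense changes were 0.86 in DKO against Trp53 KO (adjusted p = 0.795 by limma) and 0.16 in Tdg KO against WT (adjusted p = 1.00), with 1 library left in DKO and in Tdg KO that was taken to vary like the others. In the same fit ZP3AR antisense in DKO was -0.26 against Trp53 KO, -1.30 against Tdg KO and -1.16 against WT (adjusted p = 0.786, 0.339 and 0.366). Against the groups at 0, antisense was at least 2.53-fold higher in DKO than in Trp53 KO and at least 3.26-fold higher in Tdg KO than in WT. These bounds are taken on group means and rest on 1 library each, and neither difference passed (adjusted p = 0.344 and 1.00). DKO library 1 was also the library of highest total repeat coverage (46967 against 29867 in DKO library 2), whereas Tdg KO library 1 was not exceptional in that total (23827 against 18137 in Tdg KO library 2). Their part in the result was not tested.

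**Figure D4:**
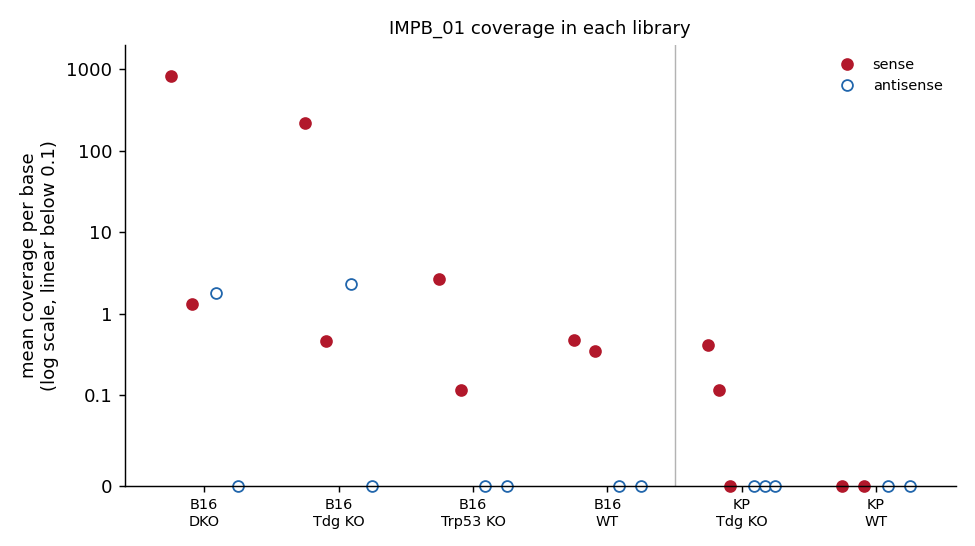
Coverage of IMPB_01 per base in each library, on a log axis that is linear below 0.1; filled red points are sense and open blue points antisense. Only B16 DKO library 1 (832) and B16 Tdg KO library 1 (222) are above 2.70 in sense, and only these have antisense coverage.

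IMPB_01 was close to absent from KP. Sense coverage was 0.417, 0.117 and 0 in Tdg KO libraries and 0 in both WT libraries, and antisense was 0 in all 5. These sense values are 3.57 and 1.00 fragments, and the Tdg KO mean lies under the floor of 3 fragments, so no fold is given (adjusted p = 0.778 by limma).

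SQR1_MM was near its floor, with no more than 6.51 fragments on a strand of any library. Sense coverage was 2.01 and 0 in DKO, 0 and 0.435 in Tdg KO, 1.29 and 0.426 in Trp53 KO, and 0 in both WT libraries. Antisense coverage was 2.82 and 0.776 in DKO, 0 and 1.30 in Tdg KO, 0 in each of the Trp53 KO libraries, and 0.434 and 0.849 in WT. The Trp53 KO libraries therefore had sense coverage alone, and the WT libraries antisense alone. Antisense was at least 1.38-fold higher in DKO than in Trp53 KO, without overlap (as for 68.9% of all features), and did not pass (adjusted p = 0.0590 by limma). That bound compares the DKO mean with a floor of 3 fragments, or 1.30 in coverage, and rests on DKO library 1, since library 2 is itself under the floor. With 1 library left out, the adjusted p was 0.253 and 0.115 without DKO library 1 and 2, and 0.168 and 0.179 without Trp53 KO library 1 and 2. It was 0.0828 and 0.0825 without WT library 1 and 2, and it passed, at 0.0367 and 0.0361, without Tdg KO library 1 and 2, which are not part of the comparison.

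The sense strand of SQR1_MM in the same comparison averaged 1.00 in DKO and 0.860 in Trp53 KO, both under the floor, and did not pass (adjusted p = 0.628 by limma). In Tdg KO against WT, antisense averaged 0.648 in Tdg KO and 0.641 in WT, and sense 0.218 in Tdg KO and 0 in WT. All were under the floor, and neither strand passed (each adjusted p = 1.00). SQR1_MM antisense had the smallest p of the 9 strands in Trp53 KO against WT (adjusted p = 0.704) and in the interaction of the 2 losses (adjusted p = 0.116). Neither passed, and no fold is given since Trp53 KO was at 0 and WT under the floor. Its strand ratio shifted toward antisense in DKO against Trp53 KO without passing (adjusted p = 0.136). In KP, sense was at 0 in all 3 Tdg KO libraries and at 0.435 and 0.437 in WT, or about 1 fragment each. It was the 1 of 7 strands lower in Tdg KO without overlap, beside 0.915% of all features, and is under the floor for a fold (adjusted p = 0.777). Antisense was 0 in the Tdg KO libraries and 0 and 0.415 in WT, below the filter.

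The other satellites give a comparison by name. Of 19 further entries named as satellites, 7 had signal, and 9 of their strands were tested in B16. As deposited, 4 of these 9 rose in DKO against Trp53 KO and 1 fell, against 0 and 0 of the 9 strands described here and 29.5% and 1.52% of all features. The rises were both strands of GSAT_MM, the major satellite, and the antisense strands of SATMIN, the minor satellite, and of SQR2_MM. The fall was SATMIN sense. SQR2_MM, the entry nearest in name to SQR1_MM, was read in antisense at 51.8 and 32.8 in DKO and 11.3 and 5.68 in Trp53 KO (log2 change 2.35, SE 0.61, adjusted p = 0.0333 by limma), with 0 in sense in all 4 libraries. After median-ratio scaling, 1 of the 9 rose, GSAT_MM antisense, and 1 fell, SATMIN sense, beside the fall of ZP3AR antisense. On that scale 6.18% of all features rose and 3.93% fell. The difference between the 2 lists was not tested.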

How the data were processed

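Strand-specific RNA sequencing of 13 libraries was analysed from 2 tables. Per the labels, the libraries kept strand and came from TRIzol RNA without ribosomal RNA. HISAT2 and mm10 are named in the submitters' processing notes, with no link to a given table and no settings. The deposited signal, named as piPipes mean signal, was read as coverage per base. Per the file headers, each library has a sense and an antisense column, and the antisense score in the deposited tables carries a minus sign, which was dropped. For 660 of 661 elements with at least 6 nonzero values, all values were whole multiples of 1 step to within 0.01 (99.85%), so coverage was not scaled to library size.

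Of 2035 rows, 895 had signal, and 889 remained after 6 exact duplicates were removed: 536 repeats and 353 piRNA loci. Each strand was 1 feature. Those whose coverage averaged 0.1 or more entered the fit, which left 1246 for B16 and 984 for KP. Log2 of coverage plus 0.1 was fitted with limma 3.58.1 (R 4.3.3; eBayes with its trend option, after lmFit), all groups of a table together. B16 left 4 residual degrees of freedom, and KP 3. Contrasts were two-sided, with Benjamini-Hochberg adjustment over all features and a threshold of 0.05. The strand ratio was fitted the same way over elements with a mean of both strands of at least 0.2. The fit was tested on simulated normal noise with the same spread for every feature. That does not cover the uneven spread of strands near 0. Alternatives were 3 scalings, 2 pseudocounts (0.01 and 1), 2 filters, only the compared groups in the fit, a block for replicate number, and each library left out. Leaving out DKO library 1 and Tdg KO library 1 together, and median-ratio scaling with a library left out, were added after seeing the data. The floor for a fold is 3 fragments per library, which covers counting error only.

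The members and lists were chosen with earlier results of these data known. Every member strand has its value in every library given. P-values are given for all tested strands on loss of Tdg, and elsewhere for those that passed or had the smallest p. Changes are given with them, except where both groups were under the floor or 1 was at 0. Other values named were chosen after they were seen.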

Additional observations from a re-analysis of the deposited data

How the results depend on the processing

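As deposited, 0 member strands passed in each of 7 comparisons, for coverage and for the strand ratio. In DKO against Trp53 KO, against Tdg KO and against WT, 1 passed after median centring, 1 after quantile normalization and 1 after median-ratio scaling, each time ZP3AR antisense. With a pseudocount of 1, 1 passed against Tdg KO, MMSAT4. With a library left out, 0 to 1 passed in DKO against Trp53 KO and 0 elsewhere. The strand ratio count was 0 under all alternatives run. The replicate block also gave 0 in each comparison, for both measures. Same-numbered libraries deviated together weakly (r from -0.021 to 0.177), so the numbers were not taken to pair libraries. The highest r, 0.177, was between Tdg KO and DKO, the groups whose libraries 1 had high IMPB_01. No fit of the compared groups alone was run for the interaction or for KP. Outside IMPB_01, no member strand had more than 50.1 fragments in a library. Whether depth set the number of calls was not tested.

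Among the changes on loss of Tdg in either line and the 1 or 2 followed in each other comparison, leaving out strands with both groups under the floor or 1 at 0, those that did not pass and turned sign were as follows, in log2. The cause was not tested. In DKO against Trp53 KO, MMSAT4 was -0.97, -0.18 and -0.37 and ZP3AR_MM antisense -0.59 and -0.13, after median centring, quantile and (MMSAT4 only) median-ratio scaling. In Tdg KO against WT, ZP3AR_MM sense was -0.23 with a pseudocount of 1 and -0.20 without the 2 libraries of high IMPB_01. In KP, MMSAT4 was -0.05 with quantile normalization and ZP3AR sense 0.30 with a pseudocount of 1. With 1 library left out, the ranges in DKO against Trp53 KO were -0.20 to 3.12 for ZP3AR_MM antisense and -0.26 to 0.10 for ZP3AR antisense. In Tdg KO against WT they were -2.67 to 4.47 for ZP3AR_MM sense. For ZP3AR they were -0.08 to 1.01 in antisense and -1.58 to 0.47 in sense. In KP they were -1.92 to 1.95 for ZP3AR sense.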

Other observations

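The pair of B16 libraries with high IMPB_01, DKO library 1 and Tdg KO library 1, shared other sequences too. Among the 1246 features of the B16 table, 21 features were at least 5 times as high in both of them as in any other B16 library: both strands of IMPB_01 and 19 other elements. Of these 19, 9 are ERV2 elements by name, such as RLTR34_MM sense (5.34 in DKO library 1, 5.48 in Tdg KO library 1) and RNLTR2d sense (11.3 and 10.8), both at 0 in the other 6 libraries. RLTR31B_MM antisense was at 36.3 and 3.61, and also at 0 in the other 6. Counting every feature, 31 had signal in exactly these 2 libraries, beside 37 in exactly the 2 DKO libraries and at most 14 in any other of the 28 pairs. The labels give both libraries the replicate number 1.

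The features most like each member over the 8 B16 libraries are given as a description. The points share libraries and depth, and values at 0 weigh heavily. For ZP3AR antisense they were pi-Cbl.2 sense (Pearson r = 0.923, and 0.981 after median-ratio scaling), L1VL1_5end antisense (0.873 and 0.95) and pi-Zfp346.1 sense (0.86 and 0.872). L1VL1_5end antisense was at 12.5 and 13.4 in DKO, 26.1 and 18.2 in Tdg KO, 13.5 and 8.20 in Trp53 KO and 14.1 and 21.6 in WT. For MMSAT4 sense they were PB1D9 antisense (0.978 and 0.952), SINEB1_MU antisense (0.96 and 0.895) and RMER6D sense (0.928 and 0.847). PB1D9 antisense was at 14.1 and 1.97 in DKO, 0 in both Tdg KO libraries, 1.27 and 1.2 in Trp53 KO, and 0 and 1.25 in WT. For IMPB_01 sense they were pi-Rad54l2.1 sense (0.97), RLTR20B3 antisense (0.968) and a piRNA locus named by cytoband (0.967), each highest in the 2 libraries named above. For IMPB_01 antisense, 3 piRNA loci had r = 1, all with signal in those 2 libraries alone. For ZP3AR sense they were RMER2B_Rn sense (0.973 and 0.846), ERVB4_1-I_MM antisense (0.971 and 0.796) and pi-Hmbox1.2 antisense (0.97 and 0.949). For ZP3AR_MM they were IAPLTR3 antisense (0.972), RLTR9D2 antisense (0.957) and RLTR30D_MM sense (0.947) on the sense side. On the antisense side they were RLTR13A2 (0.937), IAPEY3C_LTR (0.934) and RLTR43C (0.931), all antisense. For SQR1_MM sense they were pi-March08.1 (0.897), RLTR10B2 (0.838) and IAPEY_LTR (0.787), all sense, and for SQR1_MM antisense RLTR20A1_MM antisense (0.973), L1R2_RN sense (0.913) and LTRIS_Mm antisense (0.892).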
